A study of Mus musculus with 7 samples.

Results

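The genes described here are 10 members of the Notch pathway: the ligand genes Dll1, Dll3, Dll4 and Jag1, the receptor genes Notch1 and Notch3, and the HES and HEY genes Hes1, Hes5, Hes6 and Hey1. Their members among the H3K27ac peaks were all merged peaks that overlapped the gene body or 10 kb on either side of it (GENCODE M21, genome build mm10), which gave 54 of 66841 merged peaks. H3K27ac is a histone acetylation found at active promoters and enhancers. It was measured by ChIP-seq in A2Lox cells, a mouse embryonic stem (ES) cell line that in every group carried a doxycycline-inducible NeuroD1 transgene and had been passaged away from its feeder fibroblasts. The groups were uninduced cells at 0 h without doxycycline, and cells in which NeuroD1 had been induced for 12 h or 48 h with 500 ng per ml of doxycycline, with 2 libraries (R1 and R2) each. NeuroD1 is a proneural bHLH transcription factor. Each p-value of the main test sets a change against a spread estimated from the 6 libraries of all 3 time points together. No source used here says whether R1 and R2 were separate cultures, so that spread may be technical. The design has no doxycycline-treated group without induction, so that doxycycline, time in culture and NeuroD1 cannot be told apart.

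Notch signalling works between neighbouring cells. Ligands of the Delta and Jagged families on one cell bind Notch receptors on the next, the receptor is cleaved, and its intracellular part enters the nucleus and joins the DNA-binding protein RBPJ, which recognises sequences such as TGGGAA, to switch on target genes. In neural progenitors the targets Hes1, Hes5 and Hey1 encode repressors that hold back proneural bHLH factors. Proneural factors in turn bind E-boxes, such as CAGATG and CAGCTG, and are known to switch on Delta ligands. Hes6 belongs to the same protein family but counteracts Hes1 and is itself associated with differentiating neurons.

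Each library held between 6283103 and 8112895 reads in merged peaks. Counts are given below as scaled counts, which are reads multiplied by the mean library total and divided by the library's own total. A gene sum is the scaled count summed over all merged peaks of a gene's window. A peak in the windows of several genes enters each of their sums. A peak or gene sum is called gained or lost where edgeR's quasi-likelihood test, adjusted by the Benjamini-Hochberg method over all peaks or all 16175 protein-coding genes with a peak, gave an adjusted p under 0.05. The 12 h libraries had a lower GC content than the others: the read-weighted mean GC content of the peaks was 51.2% and 51.6% in the 0 h libraries, 49.9% and 49.6% in those of 12 h, and 51.8% and 50.3% in those of 48 h. The median log2 fold change over all gene sums was -0.29 (12 h vs 0 h), 0.03 (48 h vs 0 h) and 0.32 between 12 h and 48 h, and became -0.01, 0.01 and 0.03 with an offset for GC content. Values under that offset are called GC-offset below. At 48 h, R1 lay above R2 in 10 of 10 member gene sums and in 69.4% of all gene sums.

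The cell type labels were checked on marker genes. All 8 ES cell markers (among them Nanog, Pou5f1 and Sox2) had peaks, and their summed scaled count was 25413 to 25704 at 0 h, 27910 to 28136 at 12 h and 17076 to 21817 at 48 h. Of 8 neuron markers, 7 had peaks (none for Dcx), with a summed scaled count of 2605 to 2862 at 0 h, 3113 to 3259 at 12 h and 3604 to 3745 at 48 h. Of 8 feeder fibroblast markers, 3 had peaks, with sums of 365 to 369, 385 to 414 and 334 to 391 in the same order, and Col6a3, Postn, Thy1, Twist2 and Fbln2 had none. The members of these sums moved differently: Col1a2 was gained at 12 h (1.12) and 48 h (1.38) and Col3a1 at 12 h (1.62), while Col1a1 (-0.44) and the neuron marker Elavl3 (-1.06) were lost at 12 h, Col1a1 not with the GC offset (-0.04). Of the other neuron markers at 12 h, Elavl4 (mean 1100 to 1604, 0.54), Map2 (0.85) and Nhlh1 (1.07) were gained. Tubb3 (-0.11), Stmn2 (-0.31) and Ina (-0.07) were not called. At 48 h vs 0 h, 3 neuron markers were gained (Tubb3, Map2 and Nhlh1) and 4 not called, with Elavl3 at -0.58 (GC-offset -0.51, lost). Of the 8 ES cell markers, 1 was gained at 12 h (Pou5f1, 0.30) and 7 were not called, among them Nanog (-0.19, GC-offset -0.28 and lost). At 48 h vs 0 h, 3 were lost (Esrrb -0.53, Tfcp2l1 -0.86 and Dppa4 -0.43) and 5 not called, or 7 lost with the GC offset. The part of these cell types in the results was not tested. The peaks in the Neurod1 window rose from 184 and 158 to 652 and 584 at 12 h (log2 fold change 1.85, standard error (SE) 0.14, adjusted p = 9.9e-05) and stood at 480 and 530 at 48 h. The transgene holds the mouse NeuroD1 coding sequence, so reads from it and from the gene's own coding sequence cannot be told apart. The counts come from all cells together, so a change in the share of cells with a mark and a change in its level per cell cannot be told apart. The part of changing cell composition in the results was not tested.

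After 48 h of induction the gene sums of the ligand genes Dll1, Dll3 and Jag1 and of Hes6 were gained, while the gene sums of Dll4, Notch1, Notch3, Hes1 and Hes5 were not called at 48 h vs 0 h (log2 fold changes between -0.26 and 0.09). The Hey1 gene sum was not called either, at 0.60 (adjusted p = 0.16), but was gained with the GC offset (0.62, adjusted p = 0.035). Of the 54 member peaks, 8 were gained and 3 lost at 12 h vs 0 h, against 9.93% of all merged peaks gained and 6.03% lost. At 48 h vs 0 h, 11 were gained and 2 lost, against 8.56% and 5.45%, and at 48 h vs 12 h 12 were gained and 4 lost, against 10.7% and 8.43%. Under the GC offset the counts were 12 gained and 0 lost, 20 gained and 2 lost, and 11 gained and 7 lost. Over all 66841 merged peaks the GC offset gave 5443 gained and 3420 lost, then 8502 and 5047, then 9836 and 6877. The median log2 fold change of the member peaks was -0.10, 0.49 and 0.48 in these 3 comparisons, beside -0.08, -0.04 and -0.03 over all merged peaks. Of the 54 peaks, 51 held at least 10 reads in at least 2 libraries, and 25 had a mean under 20 scaled counts. Their median mean scaled count of 29.7 was near that of all peaks, 30.4.

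Called peaks against 0 h were counted by role and by position. Over all merged peaks 9.93% were gained and 6.03% lost at 12 h, and 8.56% and 5.45% at 48 h. The ligand windows held 20 peaks, of which 6 were gained and 0 lost at 12 h and 7 gained and 0 lost at 48 h. Of these gains, 4 of the 6 at 12 h and 3 of the 7 at 48 h lay in the Dll1 window. The receptor windows also held 20 peaks, with 0 gained and 2 lost at 12 h, and 3 gained and 1 lost at 48 h. The HES and HEY windows held 14 peaks, with 2 gained and 1 lost at 12 h, and 1 gained and 1 lost at 48 h. With the GC offset the gained and lost peaks at 12 h were 8 and 0 for ligands, 1 and 0 for receptors, and 3 and 0 for HES and HEY genes, and at 48 h 10 and 0, 6 and 1, and 4 and 1. Over all 66841 merged peaks these were 5443 and 3420 at 12 h, and 8502 and 5047 at 48 h. By position, 5 of the 12 peaks upstream of a member were gained and 0 lost at 12 h, and 1 gained and 1 lost at 48 h (GC-offset 5 and 0, then 2 and 1). Of the 12 peaks at members' own promoters, 2 were gained and 1 lost at 12 h, and 5 gained and 0 lost at 48 h (GC-offset 4 and 0, then 9 and 0). A promoter peak here is one within 2 kb of an annotated coding transcription start. No test compared the roles or positions with each other.

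**Figure D1:**
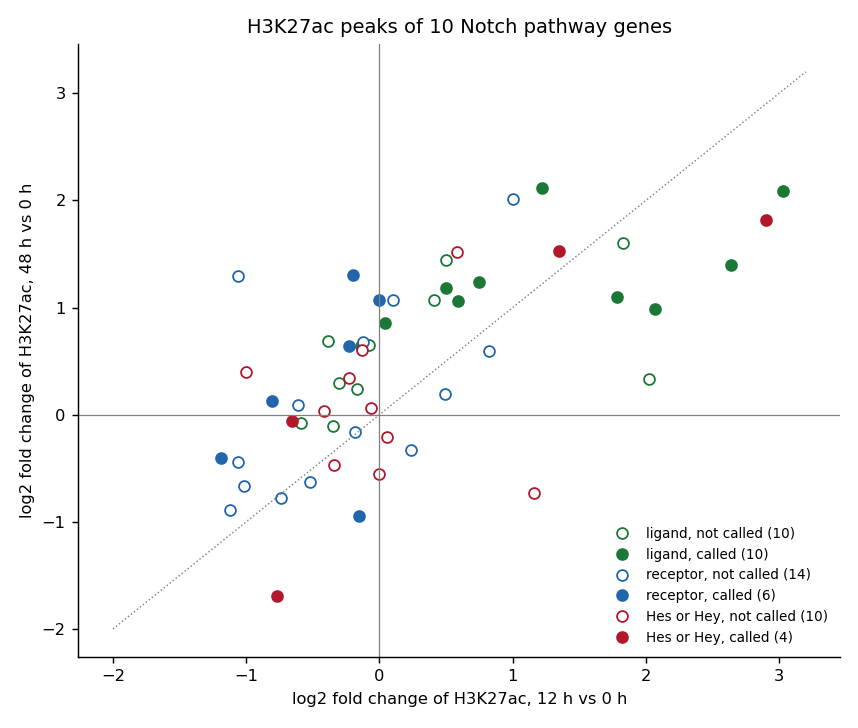
Log2 fold change of H3K27ac at 12 h vs 0 h (horizontal axis) and 48 h vs 0 h (vertical axis) for the 54 peaks of the 10 genes, coloured by role, with filled points for the 20 peaks called in at least 1 of the 2 comparisons and a dotted line of equal change. The comparisons share the 0 h libraries. The called ligand peaks lie above 0 on both axes, except the Timm50 promoter peak in the Dll3 window (-0.14 at 12 h), with upstream Dll1 peaks below the dotted line and the Dll3 promoter peak above it.

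For the gene sums, 2 of the 10 members were gained (Dll1 and Hes6) and 2 lost (Notch3 and Hes5) at 12 h vs 0 h, where 7.13% of all gene sums were gained and 30.2% lost. With the GC offset, 4 were gained (Dll1, Dll3, Notch1 and Hes6) and 0 lost. At 48 h vs 0 h, 4 were gained (Dll1, Dll3, Jag1 and Hes6) and 0 lost, against 6.45% and 5.35% of all gene sums, and the GC offset added Hey1. At 48 h vs 12 h, 5 were gained (Dll3, Jag1, Notch3, Hes5 and Hey1) and 0 lost, against 38.2% and 7.73% of all gene sums. With the GC offset, Dll3 and Jag1 were gained and Dll1 and Hes1 lost in that comparison. Over all 16175 gene sums the GC offset gave 1830 gained and 890 lost, then 1644 and 1514, then 2367 and 2886 in these 3 comparisons.

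**Figure D2:**
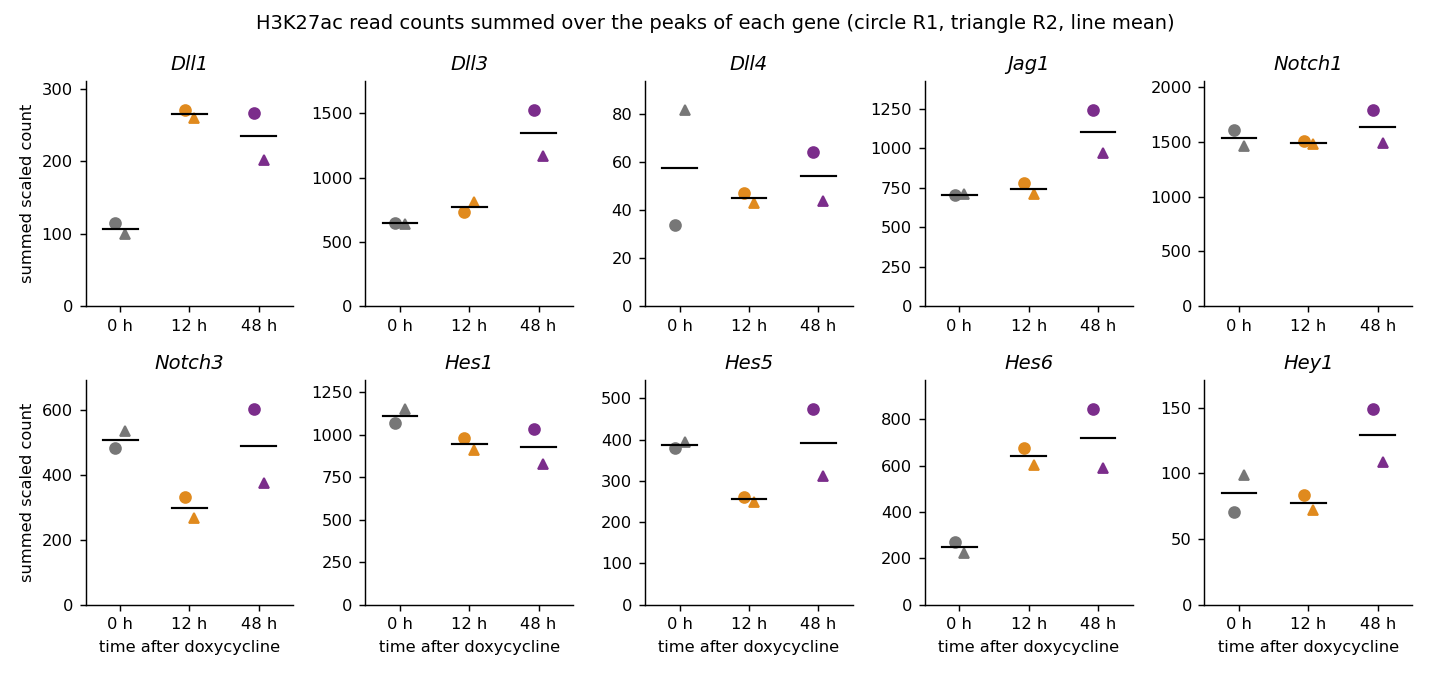
Summed scaled count of H3K27ac over all peaks of each of the 10 genes (vertical axes, each from 0) at 0 h, 12 h and 48 h, with circles for R1, triangles for R2 and a line at the mean. Dll1 and Hes6 sit higher in all 4 induced libraries than in either 0 h library, and Dll3 and Jag1 are highest in both 48 h libraries.

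Levels between genes were compared per kb of peak. At 0 h the highest were Hes1 with 127 ± 6.66 scaled counts per kb (SD, n = 2) and Hes5 with 119 ± 3.06, which differed by less than the sum of their SDs. The lowest were Hes6 with 43.9 ± 6.01 and, beyond that spread, Dll1 with 22.9 ± 2.14. Notch3, Notch1, Dll4, Jag1, Dll3 and Hey1 lay between, from 93.8 to 52.2. At 12 h Hes6 headed the order with 113 ± 8.93, within the spread of Hes1 at 109 ± 5.8. At 48 h Hes6 stood at 127 ± 31.8, followed by Dll3 at 123 ± 22.7 and Hes5 at 121 ± 35.5, and no neighbours in the order from Hes6 down to Dll1 (50.3 ± 9.77) differed by more than the sum of their SDs. Hes6 and Dll3 stood in places 9 and 7 at 0 h and in places 1 and 2 at 48 h. These levels include promoter peaks of neighbouring genes. In the Hes5 window the Pank4 promoter peak held a mean of 306 of 386 scaled counts at 0 h and 294 of 393 at 48 h. The Hes5 promoter peak itself held 59.5 and 61.3, so the place of Hes5 is mostly that of Pank4. In the Dll3 window the Timm50 promoter peak held 321 of 644 at 0 h and 500 of 1348 at 48 h.

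Dll1 (chromosome 17, 15367354 to 15376872, minus strand) encodes a Delta ligand that activates Notch receptors on neighbouring cells. Its gene sum over 7 peaks was 114 and 99.8 before induction (R1 and R2), 270 and 260 after 12 h, and 266 and 202 after 48 h. All 4 induced libraries lay above both uninduced ones. The log2 fold change of the gene sum was 1.31 (SE 0.19, adjusted p = 0.0023, GC-offset 1.62) at 12 h and 1.13 (SE 0.19, adjusted p = 0.0036) at 48 h. Without 0 h R2 these were 1.22 (adjusted p = 0.098) and 1.03 (adjusted p = 0.1).

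At 12 h the called gains at Dll1 lay upstream of the gene, and the promoter peak was called at 48 h. The upstream peak at chr17:15380840-15381727, centred at -4411 bp from the gene start (negative is upstream), counted 22.6 and 17.0 in the 0 h libraries, 68.6 and 68.1 in those of 12 h, and 42.2 and 43.0 in those of 48 h. It was gained by 1.78 on the log2 scale at 12 h (SE 0.31, adjusted p = 0.00032, GC-offset 2.17) and by 1.10 at 48 h (adjusted p = 0.024), and it passed at 12 h, though not always at 48 h, without any 1 library: at 48 h the value was 1.32 (adjusted p = 0.078) without 0 h R1, 0.91 (adjusted p = 0.28) without 0 h R2, and 1.10 (adjusted p = 0.052) without 12 h R1 or R2. The neighbouring upstream peaks at 15378276 to 15378875 and 15380067 to 15380659, named after their values were seen, rose by 2.64 (adjusted p = 0.00024, GC-offset 2.20) and 2.07 (adjusted p = 0.0011, GC-offset 2.26, and 1.80 with adjusted p = 0.074 without 0 h R2) at 12 h. In the 0 h libraries the first held only 5 and 6 reads and the second 11 and 7, so these fold changes are imprecise. Both peaks were lower at 48 h than at 12 h, by -1.24 (adjusted p = 0.022, GC-offset -0.91) and -1.08 (adjusted p = 0.034, GC-offset -1.20). Without 48 h R1 these were -1.01 (adjusted p = 0.07) and -0.82 (adjusted p = 0.12), and without either 12 h library they also missed the threshold (adjusted p from 0.088 to 0.25), as did the second without either 0 h library (adjusted p = 0.056 and 0.057). At the promoter peak, 15374746 to 15376007, the counts were 39.0 and 36.1 before induction, 49.3 and 63.5 after 12 h, and 98.8 and 60.2 after 48 h. It passed the test at 48 h with 1.06 (SE 0.30, adjusted p = 0.017) and not at 12 h with 0.59 (adjusted p = 0.19), where the GC-offset value of 1.13 did pass (adjusted p = 0.0012). The 48 h value was 0.68 without 48 h R1 (adjusted p = 0.089), 1.12 without 0 h R1 (adjusted p = 0.11) and 1.01 without 0 h R2 (adjusted p = 0.21). When peaks outside the gene body were left out, the Dll1 sum rose by only 0.55 at 12 h and was not called (adjusted p = 0.14). The 2 Dll1 promoter peaks and the nearest upstream peak also overlap the noncoding gene A930024N18Rik.

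Sequences are shown for the centre of this upstream peak, which was called at 12 h, (chr17:15381134-15381433, plus strand) and for the promoter from RefSeq (mm10, 250 bases before to 50 after the start, chr17:15376883-15377182, minus strand). The RefSeq promoter overlaps only the end of the second Dll1 promoter peak (15376158 to 15376942) and otherwise lies in no peak. Capitals mark CAGATG and also CAGCTG and TGGGAA on either strand, here and in all sequences that follow, and no marked sites overlapped one another.
Dll1 upstream peak centre: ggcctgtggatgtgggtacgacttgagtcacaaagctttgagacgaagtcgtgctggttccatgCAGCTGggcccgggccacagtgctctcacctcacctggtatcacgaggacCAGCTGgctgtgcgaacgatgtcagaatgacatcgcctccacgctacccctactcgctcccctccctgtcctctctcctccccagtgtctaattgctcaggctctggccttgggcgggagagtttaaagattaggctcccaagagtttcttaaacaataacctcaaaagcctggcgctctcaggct
Dll1 promoter: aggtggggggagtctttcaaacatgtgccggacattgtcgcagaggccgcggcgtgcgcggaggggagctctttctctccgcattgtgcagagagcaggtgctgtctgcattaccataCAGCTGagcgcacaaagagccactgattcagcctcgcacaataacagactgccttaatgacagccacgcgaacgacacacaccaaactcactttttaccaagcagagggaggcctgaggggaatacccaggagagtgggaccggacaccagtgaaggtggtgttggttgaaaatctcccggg
The upstream centre holds 2 CAGCTG sites and the promoter 1. The centres of the neighbouring upstream peaks starting at 15378276 and 15380067, also gained at 12 h, hold 0 CAGATG, 0 CAGCTG and 0 TGGGAA.

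Dll3 (chromosome 7, 28293553 to 28302238, minus strand) encodes a divergent Delta protein that acts mainly inside the cell that makes it and dampens Notch signalling there. Its promoter peak had the largest log2 fold change among the members' promoter peaks at 48 h vs 0 h, while at 12 h that of Hes6 was larger (1.35). The promoter peak at chr7:28300142-28304387 counted 155 and 125 in the 0 h libraries, 308 and 344 in those of 12 h, and 674 and 545 in those of 48 h. The 3 time points did not overlap. The log2 fold change was 1.22 (SE 0.19, adjusted p = 0.00011, GC-offset 1.36) at 12 h and 2.12 (SE 0.19, adjusted p = 5.6e-08) at 48 h. The further rise from 12 h to 48 h was 0.90 (SE 0.18, adjusted p = 0.0017, GC-offset 0.80), and 0.82 without 12 h R1 (adjusted p = 0.076). The 12 h and 48 h calls held without any 1 library.

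The gene sum of Dll3 had a smaller fold change, and its window also holds the promoters of Selenov and Timm50. It was 645 and 643 before induction, 734 and 814 after 12 h, and 1523 and 1172 after 48 h. The sum changed by 0.27 on the log2 scale after 12 h (SE 0.13, adjusted p = 0.13, GC-offset 0.74 with adjusted p = 0.00019) and 1.06 at 48 h (SE 0.13, adjusted p = 0.00056). The Timm50 promoter peak, 28308997 to 28312867, counted 302 and 341 before induction, 278 and 305 after 12 h, and 582 and 419 after 48 h, and was gained at 48 h by 0.64 (adjusted p = 0.022), a call that ended without any 1 of the 0 h or 12 h libraries (adjusted p from 0.06 to 0.22) and stood at 0.38, still called, without 48 h R1. The Selenov promoter peak was gained at 48 h by 0.86 (adjusted p = 0.044), or 0.54 without 0 h R2 (adjusted p = 0.49). With 1 library left out, it passed without 0 h R1 or 48 h R2 and not otherwise. Of the 5 peaks of the window, only the Dll3 promoter peak was called at 12 h.

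The centre of the Dll3 promoter peak (chr7:28302115-28302414, plus strand) and the RefSeq promoter next to it (chr7:28301736-28302035, minus strand) are shown because they lie in the peak with the smallest adjusted p at 48 h among the 54.
Dll3 promoter peak centre: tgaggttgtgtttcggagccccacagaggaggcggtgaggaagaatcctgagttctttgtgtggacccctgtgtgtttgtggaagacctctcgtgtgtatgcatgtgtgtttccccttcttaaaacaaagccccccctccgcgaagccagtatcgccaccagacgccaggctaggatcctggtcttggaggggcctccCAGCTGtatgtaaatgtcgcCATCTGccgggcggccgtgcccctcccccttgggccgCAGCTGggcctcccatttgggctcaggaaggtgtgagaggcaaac
Dll3 promoter: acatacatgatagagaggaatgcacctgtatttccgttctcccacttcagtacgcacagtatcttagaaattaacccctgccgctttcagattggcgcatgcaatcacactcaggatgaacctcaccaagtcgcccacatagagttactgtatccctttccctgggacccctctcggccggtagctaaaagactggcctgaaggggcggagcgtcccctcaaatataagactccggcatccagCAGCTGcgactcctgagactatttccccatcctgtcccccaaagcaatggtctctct
The peak centre carries 1 CAGATG, read on the other strand, and 2 CAGCTG sites within 300 bases, and the promoter carries a further CAGCTG. The start in RefSeq lies 453 bp from the start of the GENCODE gene.

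Dll4 (chromosome 2, 119325784 to 119335962, plus strand), the Delta ligand best known from blood vessels, had no promoter peak. Its window held 1 downstream peak, with 33.9 and 81.7 scaled counts before induction, 47.2 and 43.2 after 12 h, and 64.4 and 43.9 after 48 h. The 0 h libraries spanned all the others, and the log2 fold changes were -0.35 after 12 h (adjusted p = 0.49, GC-offset 0.22) and -0.10 after 48 h (adjusted p = 0.91).

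Jag1 (chromosome 2, 137081456 to 137116644, minus strand), a Jagged-family ligand, was called gained at 48 h vs 0 h inside the gene and not at its promoter, a difference that was not tested. The gene sum was 701 and 707 in the 0 h libraries, 780 and 707 in those of 12 h, and 1239 and 969 in those of 48 h, and it changed by 0.08 on the log2 scale after 12 h (adjusted p = 0.64, GC-offset 0.30) and by 0.65 after 48 h (SE 0.13, adjusted p = 0.0082; adjusted p = 0.096 without 0 h R1 and 0.14 without 0 h R2). The peak at chr2:137096035-137100203, which is almost wholly intronic and centred 18525 bp into the gene, counted 187 and 161, then 316 and 269, then 422 and 399. Its log2 fold change was 0.75 at 12 h (SE 0.19, adjusted p = 0.0089, GC-offset 0.64) and 1.24 at 48 h (SE 0.19, adjusted p = 5.5e-05). Its time points did not overlap, although the 12 h to 48 h rise of 0.49 missed the threshold (adjusted p = 0.058) and passed it with the GC offset (0.61, adjusted p = 0.0012). At the promoter peak, 137113724 to 137118035, the counts were 460 and 500 before induction, 398 and 381 after 12 h, and 698 and 489 after 48 h. The change at 48 h vs 0 h was 0.30 (adjusted p = 0.28, GC-offset 0.56 with adjusted p = 0.0011), and the rise from 12 h was 0.61 (adjusted p = 0.021, GC-offset 0.42). That rise was 0.33 without 48 h R1 (adjusted p = 0.074) and also missed the threshold without each of the 0 h and 12 h libraries (adjusted p from 0.053 to 0.22). The 48 h call of the intronic peak held without any 1 library, and its 12 h call ended without each of the 0 h or 12 h libraries (adjusted p from 0.058 to 0.19).

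**Figure D3:**
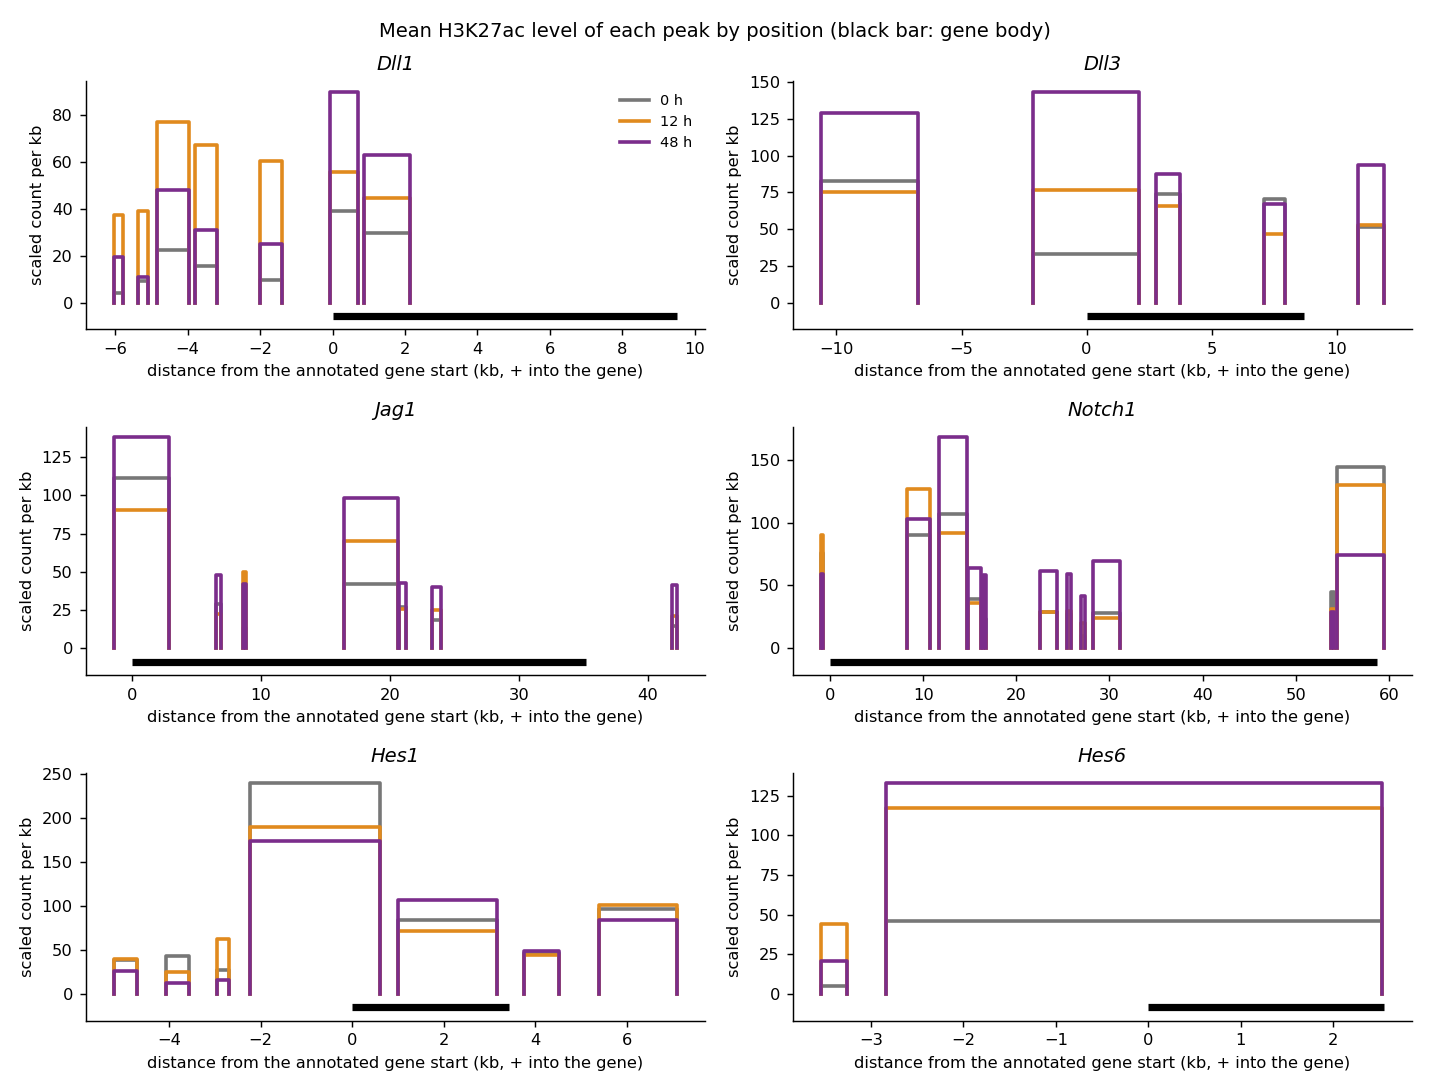
Mean scaled count per kb of each peak (vertical axis) by distance from the annotated gene start in kb (horizontal axis, positive into the gene) for Dll1, Dll3, Jag1, Notch1, Hes1 and Hes6, at 0 h, 12 h and 48 h, with the gene body as a black bar. The 5 upstream peaks of Dll1 are tallest at 12 h, the Dll3 promoter and the Jag1 intronic peak rise stepwise, and the peak at the far end of Notch1 is lowest at 48 h.

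Among the receptors, Notch1 (chromosome 2, 26457903 to 26516663, minus strand) held nearly the same total while its peaks moved in opposite directions. The gene sum over 11 peaks was 1609 and 1460 in the 0 h libraries, 1505 and 1479 in those of 12 h, and 1788 and 1487 in those of 48 h. Its change on the log2 scale was -0.04 after 12 h (adjusted p = 0.78; GC-offset 0.28, adjusted p = 0.046) and 0.09 at 48 h (adjusted p = 0.67). Of the 11 peaks, 3 were gained and 1 was lost at 48 h.

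The lost peak, chr2:26457156-26462279, lies at the 3′ end of Notch1 and covers 1541 bp of coding exons of the gene. It counted 769 and 705 before induction, 644 and 686 after 12 h, and 339 and 425 after 48 h, where both libraries were below all the others. The log2 fold change was -0.95 at 48 h vs 0 h (SE 0.17, adjusted p = 0.00032) and -0.80 at 48 h vs 12 h (SE 0.17, adjusted p = 0.0022, GC-offset -0.90), while the value after 12 h was -0.15 (adjusted p = 0.55, GC-offset 0.01). The 48 h vs 0 h loss held without any 1 library, and the 48 h vs 12 h loss did so except without 12 h R2 (-0.75, adjusted p = 0.085). The peak also overlaps the annotated genes 0610009E02Rik and Gm13568. The opposite change was seen at the promoter peak, 26501921 to 26505016, which holds the RefSeq start and lies 13195 bp into the longer GENCODE gene. It counted 344 and 318 in the 0 h libraries, 276 and 291 in those of 12 h, and 588 and 449 in those of 48 h, with a log2 fold change of 0.64 at 48 h (SE 0.18, adjusted p = 0.017; from 0.051 to 0.23 without each of the 0 h or 12 h libraries) and -0.23 at 12 h (adjusted p = 0.40, GC-offset 0.22).

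Inside Notch1, the intronic peaks at 26485562 to 26488447 and 26492328 to 26494109, named after their values were seen, were gained at 48 h and not at 12 h. The first counted 98.5 and 62.6 before induction, 74.0 and 67.2 after 12 h, and 263 and 138 after 48 h, a log2 fold change of 1.30 (SE 0.28, adjusted p = 0.0024). It was 0.77 without 48 h R1, still called, and 1.01 without 0 h R2 (adjusted p = 0.16). The second rose by 1.07 (SE 0.30, adjusted p = 0.016) from 54.4 and 47.8 to 145 and 72.2, and was 0.50 without 48 h R1 (adjusted p = 0.2), 1.17 without 0 h R1 (adjusted p = 0.099) and 0.98 without 0 h R2 (adjusted p = 0.23). From 12 h to 48 h the first rose by 1.50 (adjusted p = 0.001, GC-offset 1.28), or 0.97, still called, without 48 h R1. The second rose by 1.08 (adjusted p = 0.014, GC-offset 0.88), or 0.50 without 48 h R1 (adjusted p = 0.21), and it also missed the threshold without either 12 h library (adjusted p = 0.13 each). The centre of the first is shown (chr2:26486855-26487154, plus strand), since of the 54 windows of 500 bp it held the most CAGATG sites.
Notch1 intronic peak centre: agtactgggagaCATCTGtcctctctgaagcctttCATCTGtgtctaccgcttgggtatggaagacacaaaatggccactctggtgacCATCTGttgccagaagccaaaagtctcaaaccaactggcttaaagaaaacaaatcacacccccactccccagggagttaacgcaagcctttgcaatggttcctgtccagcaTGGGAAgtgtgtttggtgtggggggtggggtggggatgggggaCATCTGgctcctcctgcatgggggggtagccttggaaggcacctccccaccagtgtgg
All 4 CAGATG sites are read on the other strand, as CATCTG, beside 1 TGGGAA.

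Notch3 (chromosome 17, 32120820 to 32166852, minus strand) encodes a receptor that is expressed in neural progenitors and vascular muscle. Its gene sum over 9 peaks was 482 and 533 in the 0 h libraries, 332 and 266 in those of 12 h, and 602 and 376 in those of 48 h. The fall of the gene sum at 12 h was -0.77 (SE 0.21, adjusted p = 0.019) and, with the GC offset, -0.24 (adjusted p = 0.19). The promoter peak, 32165449 to 32167314 with a GC content of 62.7%, counted 303 and 328, then 198 and 162, then 441 and 251, with -0.81 at 12 h (adjusted p = 0.015; GC-offset -0.30, adjusted p = 0.22) and 0.13 at 48 h (adjusted p = 0.76). Its rise from 12 h to 48 h, 0.94 (SE 0.22, adjusted p = 0.0057), was called with the GC offset as well, at 0.68 (adjusted p = 0.00071), and was 0.80 without 12 h R2 (adjusted p = 0.15) and 0.48, still called, without 48 h R1. The 12 h loss was called without the GC offset and not with it, and without each of the 0 h or 12 h libraries the adjusted p was 0.072 to 0.25 for the promoter peak and 0.085 to 0.17 for the gene sum.

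Of the HES and HEY genes, Hes6 (chromosome 1, 91411483 to 91414038, minus strand) had the largest change of a gene sum among the 10 members at 48 h. Its sum was 272 and 224 before induction, 677 and 605 after 12 h, and 845 and 591 after 48 h. On the log2 scale the sum changed by 1.37 after 12 h (SE 0.18, adjusted p = 0.0014, GC-offset 1.68) and 1.53 at 48 h (SE 0.18, adjusted p = 0.00042), and 0.16 between 12 h and 48 h (adjusted p = 0.44). Without 0 h R2 the 12 h value was 1.24 (adjusted p = 0.08). Nearly all of it lay in 1 peak of 5362 bp over the promoter and gene body, 91411511 to 91416872, which also reaches the 3′ end of Per2. Most of the change over 48 h was present at 12 h. A small upstream peak at 91417298 to 91417582 held 3 and 0 reads in the 0 h libraries, 15 and 10 in those of 12 h, and 6 and 6 in those of 48 h, too few at 0 h for a fold change to be given.

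By the root-mean-square difference of log2 profiles (scaled count + 8, centred on each gene's mean) over the 6 libraries, the genes most like Hes6 among 14160 candidates were Prickle1 (0.133), Kcng3 (0.164) and Spsb4 (0.17). Prickle1 counted 240 and 198, 505 and 553, and 645 and 568 in the same order of libraries.

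Hes1 (chromosome 16, 30064384 to 30067796, plus strand), a principal Notch target, had the highest peak level per kb at 0 h and no called gain without the GC offset. With it, a downstream peak (30069781 to 30071482) was gained at 12 h (0.57, adjusted p = 0.017) and a second promoter peak (30065381 to 30067543) at 48 h (0.48, adjusted p = 0.035), both named after their values were seen. Its gene sum was 1068 and 1151 before induction, 983 and 912 after 12 h, and 1031 and 825 after 48 h, or, on the log2 scale, -0.23 after 12 h (adjusted p = 0.14, GC-offset 0.17) and -0.26 at 48 h (SE 0.12, adjusted p = 0.2). The promoter peak, 30062151 to 30064989, counted 604 and 754, then 538 and 535, then 513 and 471. All 4 induced libraries were below both uninduced ones, but the changes of -0.34 after 12 h (adjusted p = 0.16) and -0.47 after 48 h (adjusted p = 0.06) missed the threshold, and with the GC offset they were 0.12 and -0.17. An upstream peak, 30060317 to 30060825, went from 19.5 and 24.4 to 4.44 and 8.60 at 48 h (log2 fold change -1.69, SE 0.49, adjusted p = 0.022). It was named after its values were seen, and DESeq2 did not call it (adjusted p = 0.16). Its call ended without 0 h R1, 0 h R2 or 48 h R1 (adjusted p = 0.069, 0.22 and 0.063).

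Hes5 (chromosome 4, 154960923 to 154962371, plus strand), the target that reports Notch activity in neural progenitors, showed no call at its own promoter. The promoter peak, 154960618 to 154961772, counted 58.5 and 60.5 in the 0 h libraries, 50.4 and 38.6 in those of 12 h, and 71.1 and 51.6 in those of 48 h. On the log2 scale it changed by -0.42 after 12 h (adjusted p = 0.31, GC-offset 0.12) and 0.03 at 48 h (SE 0.28, adjusted p = 0.96). The Hes5 gene sum of 379 and 393 before induction, 261 and 249 after 12 h, and 474 and 311 after 48 h was mostly the promoter peak of Pank4, which lies within 10 kb. The fall of that sum at 12 h, -0.60 (adjusted p = 0.031), was -0.05 with the GC offset (adjusted p = 0.8), and its rise from 12 h to 48 h, 0.62 (adjusted p = 0.022), was 0.12 (adjusted p = 0.42). Both missed the threshold when peaks at promoters of other genes were left out, at -0.39 (adjusted p = 0.25) and 0.69 (adjusted p = 0.052), so that the rise was no smaller without the Pank4 peak, and without each of the 0 h or 12 h libraries. The rise was 0.29 without 48 h R1 (adjusted p = 0.077), and the fall was not called by DESeq2 (adjusted p = 0.065) or with TMM factors (adjusted p = 0.078). The Hes5 promoter (RefSeq, chr4:154960673-154960972, plus strand) is shown for its 2 TGGGAA sites, beside the Hes6 promoter (RefSeq, chr1:91413989-91414288, minus strand), which has 0 of these and 1 CAGCTG.
Hes5 promoter: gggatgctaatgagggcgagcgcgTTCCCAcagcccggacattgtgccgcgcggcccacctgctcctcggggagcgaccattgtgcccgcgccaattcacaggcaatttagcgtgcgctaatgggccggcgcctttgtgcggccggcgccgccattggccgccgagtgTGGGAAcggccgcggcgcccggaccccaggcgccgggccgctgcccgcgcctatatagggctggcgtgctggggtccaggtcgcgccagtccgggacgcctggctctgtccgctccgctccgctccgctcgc
Hes6 promoter: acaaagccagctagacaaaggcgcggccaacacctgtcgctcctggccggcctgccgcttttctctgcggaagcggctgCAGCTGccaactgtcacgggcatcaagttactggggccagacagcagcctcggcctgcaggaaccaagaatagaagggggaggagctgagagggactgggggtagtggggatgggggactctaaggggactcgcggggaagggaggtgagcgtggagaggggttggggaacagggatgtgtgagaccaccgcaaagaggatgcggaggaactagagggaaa
One of the TGGGAA sites of Hes5 is read on the other strand, as TTCCCA. The 300 bases at the centre of the Hes5 promoter peak, which was not called, hold 2 CAGCTG and 0 TGGGAA.

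Hey1 (chromosome 3, 8663359 to 8667256, minus strand), a further Notch target, had 1 peak, at its promoter. It counted 70.8 and 98.7 in the 0 h libraries, 83.6 and 71.8 in those of 12 h, and 149 and 109 in those of 48 h. Both 48 h libraries were the highest, but the change from 0 h was 0.60 (SE 0.25, adjusted p = 0.12) for the peak. With the GC offset that change was 0.77 and passed the threshold (adjusted p = 0.0031). The rise from 12 h, 0.73 (SE 0.25, adjusted p = 0.045), was 0.35 with the GC offset (adjusted p = 0.21) and 0.50 without 48 h R1 (adjusted p = 0.13). It also missed the threshold without each other library but 48 h R2 (adjusted p from 0.072 to 0.33) and with DESeq2 (adjusted p = 0.075).

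**Figure D4:**
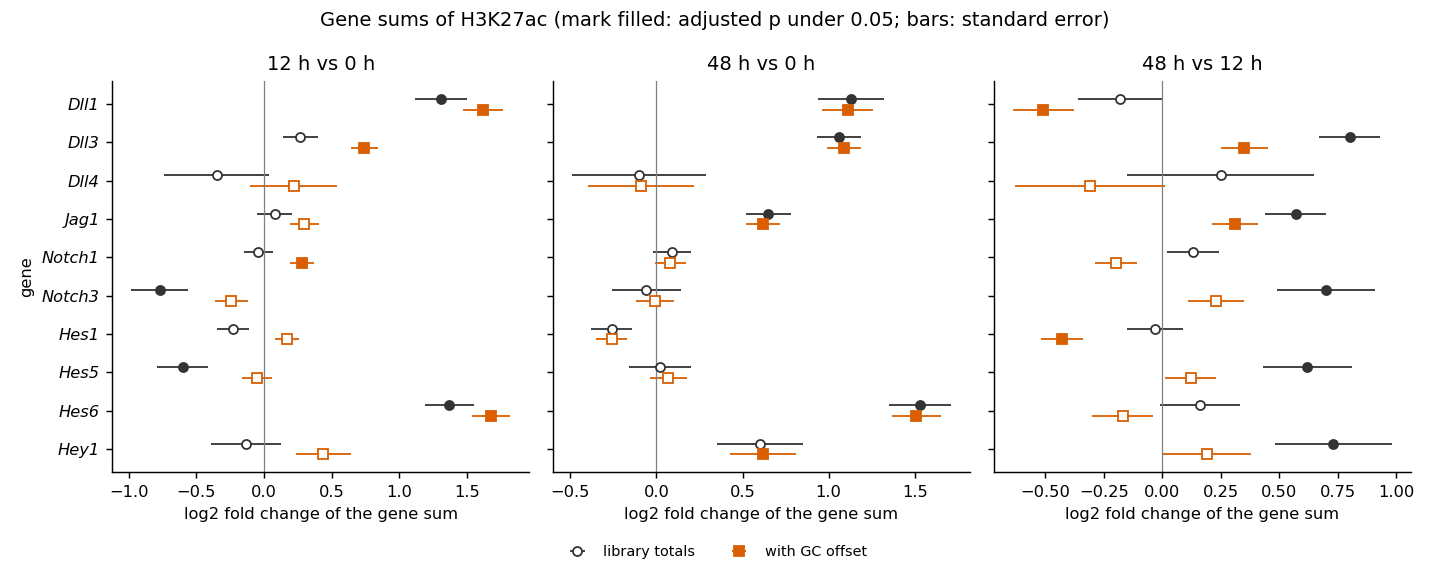
Log2 fold change of the 10 gene sums (horizontal axes, bars are standard errors) for the 3 comparisons, scaled by library totals alone (circles) or with an offset for GC content (squares), with filled marks for adjusted p under 0.05. The values at 48 h vs 0 h nearly coincide, while at 12 h vs 0 h the offset moves every gene up and the Notch3 and Hes5 losses are no longer called.

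The letters of the peaks were compared with all merged peaks in windows of 500 bp at the peak centre, on both strands. CAGATG was present in 16 of the 54 member windows (29.6%) and in 29.3% of 66783 windows over all peaks. CAGCTG was present in 20 (37.0%) against 25.2%, and TGGGAA in 27 (50.0%) against 38.1%. In RefSeq promoters of 300 bases the shares were 17.2%, 16.3% and 25.6%. Promoter entries were found for 8 of the 10 members, all but Hes1 and Hey1. Of these, the promoters of Dll1, Dll3, Jag1 and Hes6 hold 1 CAGCTG each. Sequences are shown above for chosen peaks only. The window of the Jag1 intronic peak, gained at 12 h and 48 h and not shown, holds 0 CAGATG, 0 CAGCTG and 0 TGGGAA. These matches describe letters and not binding.

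Of 40 other Notch pathway genes, all 40 had peaks. At 12 h vs 0 h, 5 gene sums were gained and 8 lost (GC-offset 11 and 5), and at 48 h vs 0 h 6 were gained and 0 lost (GC-offset 9 and 2). At 48 h vs 12 h 18 were gained and 1 lost (GC-offset 10 and 7). Over all gene sums 7.13% were gained and 30.2% lost in the first of these comparisons, 6.45% and 5.35% in the second, and 38.2% and 7.73% in the third, so that the 18 gains stand beside a high background. The median log2 fold change of the 40 genes was -0.21, 0.23 and 0.39, beside the medians of -0.29, 0.03 and 0.32 over all gene sums. With the GC offset, 1830 of all 16175 gene sums were gained and 890 lost, then 1644 and 1514, then 2367 and 2886.

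The largest rise at 48 h was at Hey2, a transcriptional repressor related to Hey1, which counted 18.5 and 10.6 before induction, 36.5 and 38.6 after 12 h, and 129 and 73.9 after 48 h. Its log2 fold change was 1.36 at 12 h (SE 0.42, adjusted p = 0.03, GC-offset 1.68) and 2.77 at 48 h (SE 0.39, adjusted p = 0.0013). Adam10, the protease that makes the first cut in the activated receptor, counted 182 and 176, 259 and 258, and 512 and 488, and rose by 0.53 at 12 h (adjusted p = 0.018, GC-offset 0.51) and 1.48 at 48 h (SE 0.14, adjusted p = 0.00014). Its time points did not overlap. Maml3, a coactivator that joins the receptor's intracellular part, counted 522 and 420, 415 and 396, and 1536 and 934, and rose by 1.38 at 48 h (SE 0.20, adjusted p = 0.0016) and by 1.60 from 12 h (adjusted p = 0.0017, GC-offset 1.30). Ncstn, which encodes nicastrin of the gamma-secretase complex, missed these 3 places with 1.35 at 48 h (adjusted p = 0.0005), and is named after its values were seen. Its window reaches the start of the neuron marker gene Nhlh1, whose own sum rose by 2.17 at 48 h (adjusted p = 0.00099). A peak near both genes enters both sums, so the rise cannot be credited to Ncstn alone.

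Mib2, an E3 ligase for ligands, rose for a time only: 911 and 955 in the 0 h libraries, 1534 and 1562 in those of 12 h, and 819 and 1003 in those of 48 h. Its gene sum was gained by 0.73 at 12 h (SE 0.11, adjusted p = 0.003, GC-offset 1.17) and lost by -0.76 from 12 h to 48 h (adjusted p = 0.0027, GC-offset -1.16). The third rise at 12 h was Maml2 with 0.55 (adjusted p = 0.016, GC-offset 0.50), and at 48 h vs 12 h the largest called rises after Maml3 were Hey2 with 1.42 (adjusted p = 0.0095, GC-offset 1.07) and Dtx3 with 1.01 (adjusted p = 0.0048, GC-offset 0.56). The largest falls at 12 h were Hes7 with -0.89 (adjusted p = 0.012), Bcl6 with -0.84 (adjusted p = 0.0073) and Dtx3 with -0.84 (adjusted p = 0.0098). With the GC offset these were -0.56, -0.48 and -0.38, all still called. None of these 3 was called at 48 h vs 0 h, where the values were -0.20, -0.06 and 0.17.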

How the data were processed

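H3K27ac ChIP-seq reads of 6 libraries were analysed as counts per merged peak. The authors aligned reads to mm10 with Bowtie2, used SAMtools 0.1.19, called peaks with MACS2, merged them over samples, and deposited raw read counts per merged peak made with QuasR. The Input library was not used here. Peaks were assigned to genes with GENCODE M21. Peak counts and gene sums were tested with edgeR 4.0.16 (R 4.3.3), in 1 model of 6 libraries with library totals as offset and Benjamini-Hochberg adjustment over all 66841 peaks or 16175 genes, threshold 0.05. Named peaks were each member's promoter peak and its called peak with the smallest adjusted p at 12 h and 48 h vs 0 h (mean of at least 20 scaled counts), and of the other pathway genes at most 3 called rises and 3 called falls per comparison. A further 9 called peaks with a mean of at least 10 were named after their values were seen. The members and gene lists were chosen with earlier results of these data known. Totals of 6283103 to 8112895 reads leave peaks under 20 scaled counts imprecise. The edgeR step was tested on simulated data. Alternatives were TMM factors, DESeq2 1.42.0, a filter of 10 reads in 2 libraries, a replicate block, a GC offset (lowess, span 0.3), the 2 time points alone, other windows and leaving out each library. Gene sums without promoters of other genes were added after seeing the data. Sequences came from RefSeq (mm10).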

Additional observations from a re-analysis of the deposited data

Results flagged for a closer look

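The change from 0 h was compared between 12 h and 48 h by testing 48 h vs 12 h directly in the same edgeR model. Of 10 gene sums and 22 named peaks, 18 differed past the threshold. Named peaks other than each member's promoter peak were picked for a call against 0 h in the same libraries, so their number is no independent support. Over all, 38.2% of gene sums were gained and 7.73% lost, and 10.7% and 8.43% of peaks. Among gene sums the log2 difference was 0.80 at Dll3, 0.57 at Jag1, 0.70 at Notch3, 0.62 at Hes5 and 0.73 at Hey1, in a comparison where the median over all gene sums was 0.32. With the GC offset, the Dll3 and Jag1 values were 0.35 and 0.31 and stayed past the threshold, and those of Notch3, Hes5 and Hey1 (0.23, 0.12 and 0.19) did not. Among promoter peaks the difference was 0.90 at Dll3, 0.61 at Jag1, 0.87 at Notch1, 0.94 at Notch3 and 0.73 at Hey1, and at promoters of neighbouring genes 0.82 at Selenov, 0.77 at Timm50 and 0.59 at Pank4. Pank4 missed the threshold with the GC offset (0.36, adjusted p = 0.082) and DESeq2 (adjusted p = 0.068) and was 0.25 without 48 h R1. Selenov missed it with DESeq2 (adjusted p = 0.083) and without any 1 library other than 48 h R2, and Timm50 and the Notch1 promoter missed it without either 12 h library. At 3 peaks 48 h lay below 12 h: -0.80 at the 3′ end of Notch1, and -1.24 and -1.08 at the upstream Dll1 peaks starting at 15378276 and 15380067. The intronic Notch1 peaks starting at 26485562 and 26492328 lay above, by 1.50 and 1.08.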

How the results depend on the processing

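Of 54 member peaks, edgeR called 11 (12 h vs 0 h), 13 (48 h vs 0 h) and 16 (48 h vs 12 h), and the values below keep this order. DESeq2 called 6 in the first comparison and 8 in the third, of 36 and 28 peaks with an adjusted p. With the 2 time points alone these became 18 and 10, and within gene bodies alone 5 and 9 of 32 peaks. In the second comparison the GC offset gave 22, and 23 together with the replicate block. Leaving out each library gave 4 to 18, 4 to 23 and 3 to 25 called peaks. The lowest came without 0 h R2 in the first and second comparison and without either 12 h library in the third, and the highest without either 48 h library in the first and without 48 h R2 in the others. A group left with 1 library is assumed to vary like the others. The 48 h pair, however, differed more (chi-square per degree of freedom 5.54) than the pairs of 0 h (1.79) and 12 h (1.42). The main test shares its spread over all time points, so calls at 48 h rest partly on the tighter earlier pairs. With the 2 time points alone, calls over all peaks rose from 10666 to 21403 in the first comparison. They fell from 9365 to 6731 in the second and from 12796 to 8368 in the third. Over all peaks and all gene sums the number of calls also fell without any 1 of the 0 h or 12 h libraries. A call of a member that ended in those fits is therefore not a trait particular to that member. This does not cover 48 h R1, without which the calls over all peaks at 48 h vs 0 h rose. Calls that ended there were those of the Dll1 promoter peaks (1.06 to 0.68 and 1.18 to 0.64) and the Selenov promoter peak (0.86 to 0.64). So did those of the intronic Notch1 peak starting at 26492328 (1.07 to 0.50) and the upstream Hes1 peak (-1.69 to -1.34).

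Of 10 gene sums, 4, 4 and 5 were called, and 3 in the third comparison with the 2 time points alone. Leaving out each library gave 0 to 6, 2 to 6 and 0 to 7. The edgeR count of 0 came without 0 h R2 in the first comparison, where 3 had an unadjusted p under 0.05, and without 12 h R1 or R2 in the third, where 5 and 3 did. DESeq2 with all libraries called 3 and 4 in these comparisons. The Notch1 gene sum at 12 h vs 0 h was -0.04, and rose with the GC offset to 0.28, or 0.29 with the GC offset and replicate block. The Notch3 and Hes5 losses at 12 h were not called with the GC offset, and the cause of the libraries' GC difference was not tested.

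R1 and R2 share only a number: R1's deviations from the time-point means correlated at -0.0362, -0.0496 and 0.078 between time points. The replicate block gave 10, 14 and 17 called peaks and 4, 4 and 5 gene sums. Depth limits the 25 member peaks with a mean under 20 scaled counts.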
